A study of Homo sapiens with 20 samples.

Results

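The comparison of day 11 with day 5 covers the stretch of the neuronal differentiation course that lay wholly after replating. Its members are 5 of the 20 samples of the series, 2 cultures at day 5 and 3 at day 11, chosen by the day in their titles. All were neural stem cells derived from H1 (a widely used line of human embryonic stem cells) and so share 1 genetic origin. They had been kept in a medium with FGF, which holds progenitors in division, and were then switched to a medium with the neurotrophic factor BDNF and without FGF, whose base also changed, from a mix of DMEM/F12 and Neurobasal with N2 supplement to Neurobasal without N2. At day 4 they were lifted and seeded again on poly-D-lysine and laminin, so day 5 is the first day on the new surface and day 11 falls a week after it. The poly(A) RNA of whole cultures was sequenced, and what nerve cells and remaining progenitors each contributed is not separated. For every gene record and day the files hold 1 FPKM value, a read count scaled for transcript length and library size, pooled over the cultures of that day. There is therefore no spread between cultures behind any value below, no test was possible and the sequencing depth behind a value is unknown.

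Progenitors that leave the cell cycle pass through an ordered programme. Proneural transcription factors of the basic helix-loop-helix family come first and switch on Notch ligands, zinc-finger and EBF factors. Genes of the neuronal cytoskeleton, of axon guidance and of the synapse follow. The brain-enriched microRNA miR-9, which is cut from the transcripts of 3 separate genes, acts in this programme by repressing progenitor factors, and REST is known as a repressor of neuronal genes outside nerve cells.

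A change is the difference in log2(FPKM + 0.1) between the days, less the median of that difference (-0.15) over the 14443 records whose FPKM averaged at least 1 over the 7 days. These are 11793 of 20237 coding records and 2650 of 18132 lincRNA records. "Rose" and "fell" stand only for a change of at least 2-fold on this scale, that is of at least 1 in log2 units. By this rule 308 coding records rose (2.61%) and 367 fell (3.11%). Among lincRNA records, 54 rose (2.04%) and 73 fell (2.75%). These shares are the background for every list below. On the values as deposited, without the median taken off, 212 coding records were higher and 500 lower, and 34 lincRNA records higher and 104 lower, so the balance of directions depended on the scaling. A rise with a change under 1.15 is under 2-fold on the deposited values, and a change of -0.85 or below is a 2-fold fall on them. The sum of FPKM over all records was 350642 at day 5 and 319232 at day 11, and lincRNA records held 14.7% and 14.8% of it. The middle 50% of coding records spanned 0.39 log2 units, against 0.21 in the step before (day 4 to 5) and 0.39 in the step after (day 11 to 18). In the step before, 44 coding records rose and 5 fell, and in the step after 216 rose and 165 fell, each step sharing a column with the comparison described here.

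The coding record that gained most spans a miR-9 hairpin. C1orf61 (hg19, chromosome 1, 156374049 to 156400493, minus strand), which GENCODE names MIR9-1HG, was listed at 0.419 FPKM at day 5 and 11.2 at day 11, a centred change of 4.60. It had lain between 0.140 and 0.384 on days 0 to 4 and reached 63.0 at day 18. The records at the other hairpins rose as well. The record that GENCODE names LINC00461 (chromosome 5, 87836597 to 87980620, minus strand) went from 20.2 to 47.3, a change of 1.38. GENCODE types LINC00461 and MIR9-1HG as long noncoding RNAs, although both records were counted as coding. The record linc-C15orf42-2, named MIR9-3HG by GENCODE (chromosome 15, 89911341 to 89941724, plus strand), went from 5.67 to 15.0, a change of 1.54. The RefSeq hairpins were found in the hg19 sequence by exact match. MIR9-1 (chromosome 1, 156390133 to 156390221, minus strand) lies inside the C1orf61 record and outside its exons. MIR9-2 (chromosome 5, 87962671 to 87962757, minus strand) lies inside an exon of the LINC00461 record. MIR9-3 (chromosome 15, 89911248 to 89911337, plus strand) ends 4 bases before the start of linc-C15orf42-2. All 3 hairpins give the same pair of mature RNAs, shown here from RefSeq because these hairpins connect the 3 records, with bases 2 to 8, the seed that pairs with targets, in capitals:
miR-9-5p: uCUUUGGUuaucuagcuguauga
miR-9-3p: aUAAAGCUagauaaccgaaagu
The libraries measured the long transcripts, of which the linc-C15orf42-2 record does not hold its hairpin, and the level of the mature RNAs was not measured.

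Many early neuronal transcription factors rose. Of 37 factors listed, 23 passed the level filter, of which 13 rose and none fell, with a median change of 1.15 against -0.01 over all coding records. INSM1, a zinc-finger factor of newborn neurons (chromosome 20, 20348765 to 20351590, plus strand), went from 3.9 to 13.6 FPKM, a change of 1.93. NEUROG2, a proneural factor, went from 7.82 to 19.4 (1.45), and MYT1L, which represses non-neuronal genes, from 0.593 to 1.73 (1.55, but 0.91 with a pseudocount of 1). EBF1, EBF2 and EBF3, factors of neurons that have left the cycle, changed by 1.34, 1.3 and 1.31, and SOX4 by 1.3. Several of these factors were at their highest of the 7 days on day 11: INSM1 had 5.84 at day 18, NEUROG2 9.93, EBF2 6.26 after 13.8, and NEUROD4 3.02 after 5.96. MYT1L and MYT1 were higher still at day 18, with 4.10 and 8.11. In this bulk measurement more cells that express a gene cannot be told apart from more RNA of it per cell.

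Some genes of the Notch pathway, picked after their values were seen, rose. DLL1, a Notch ligand, went from 13.7 to 33.9 FPKM (1.45), DLL3 from 16 to 29.8 (1.05) and HES5, a target of Notch signalling (chromosome 1, 2460185 to 2461684, minus strand), from 9.43 to 29.5 (1.79). HES1, a second target, was level at 12.2 and 11.7 (0.08). SOX9, a factor of progenitors and glia (chromosome 17, 70117161 to 70122552, plus strand), rose from 4.69 to 24.5, a change of 2.51 and the largest in the progenitor list. Of the 29 expressed members of that list 6 rose and 1 fell. The change was above 0 for 20 of them, and the median was 0.50. The member that fell was TNC, a matrix protein of radial glia, from 20.3 to 8.53. PAX6 rose from 7.80 to 14.3, a change of 1.02, but of 0.87 as deposited. The classical stem cell markers changed little. NES was at 474 and 310 FPKM (-0.46), VIM at 2641 and 1844 (-0.37) and SOX2 at 121 and 97.6 (-0.15).

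The cell cycle lists stayed under 2-fold in this interval. None of the 44 DNA replication genes and none of the 45 mitosis genes rose or fell, and their medians were 0.06 and 0.22. MKI67 was at 28.5 FPKM at day 5 and 38.4 at day 11 (0.58), and TOP2A, the topoisomerase of dividing cells, at 45.6 and 64.9 (0.66), the largest change in the mitosis list. MCM3, a subunit of the replicative helicase, was at 36.8 and 26.9 (-0.30), the lowest value in the replication list, and the ribonucleotide reductase genes RRM1 and RRM2 were highest in it with 0.40 and 0.32. In mitosis, KIF15 and CENPE followed TOP2A with 0.62 each, and ANLN was lowest at -0.12. As deposited, 30 of the 44 replication genes and 14 of the 45 mitosis genes had a lower FPKM at day 11. By day 18 MKI67 was at 14.2 and TOP2A at 25.3. From day 4 to day 18, other harvests of the same course, 35 replication and 26 mitosis genes fell. CCND1, a G1 cyclin, was at 46.9 and 48.4, and CDKN1C, an inhibitor of cyclin-dependent kinases, at 29.6 and 49.4 (0.89).

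**Figure D1:**
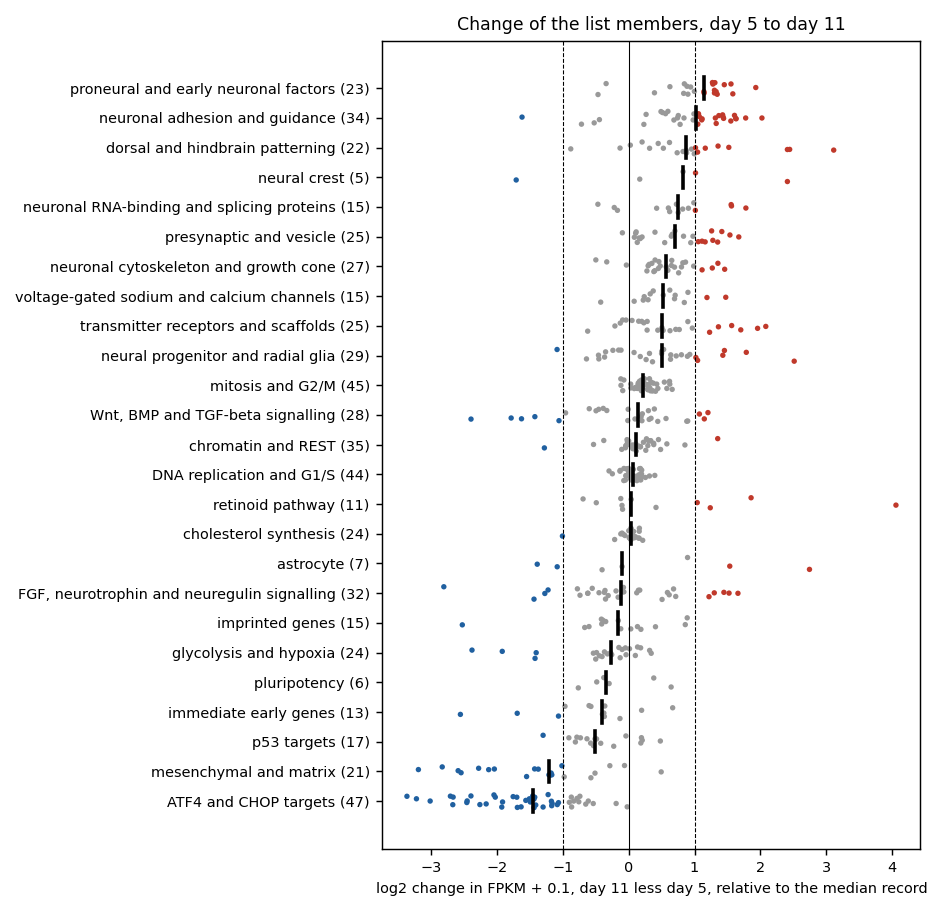
Change of every expressed member of each gene list with at least 5 such members, day 5 to day 11, in log2 units relative to the median record. Each point is 1 gene record, red if at least 2-fold higher and blue if at least 2-fold lower, the black bar is the list's median, and the number of members is in parentheses. The neuronal lists lie to the right with medians between 0.51 and 1.15. The lists of dorsal and hindbrain patterning (0.88), neural crest (0.83) and neural progenitors (0.50) lie to the right as well. The cell cycle lists lie close to 0, and the matrix list (-1.21) and the list of ATF4 and CHOP targets (-1.46) lie to the left.

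Many genes of axon growth and of the synapse rose. In the list of adhesion and guidance genes, 34 of 38 were expressed, of which 17 rose and 1 fell (median 1.02). CHL1, an adhesion molecule of the L1 family (chromosome 3, 238650 to 451095, plus strand), went from 1.78 to 6.78 FPKM (2.02). NRXN3, a presynaptic neurexin, went from 0.479 to 1.51 (1.63, but 0.90 with a pseudocount of 1). CNTN2, an axonal contactin, went from 27.2 to 75.7 and was back at 28.0 by day 18. The fall was that of SEMA3A, a repulsive guidance cue, from 42.0 to 12.2 (-1.62). NCAM1 rose from 38.8 to 90.3 and DCC, a netrin receptor, from 24.2 to 58.7.

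Presynaptic genes rose in 9 of 25 expressed cases and fell in none, with a median of 0.70. SYT13, of the synaptotagmin family (chromosome 11, 45261853 to 45307884, minus strand), went from 0.923 to 2.83 FPKM (1.67), SYT4 from 11.9 to 31.1 (1.54) and RAB3A, a vesicle GTPase, from 10.7 to 25.8 (1.41). SNAP25, a SNARE protein of vesicle fusion, went from 5.56 to 12.1 (1.26), and SYT1, a calcium sensor, from 22 to 35.4 (0.83). Other presynaptic genes moved less: NSF was at 21.8 and 18.3 (-0.10) and VAMP2 at 82.7 and 81.4 (0.13). All 25 presynaptic records were higher at day 18 than at day 4 relative to the median, 21 of them by at least 2-fold, where the background is 8.13% of coding records.

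Receptors and channels were partly in place. Of 25 expressed receptor and scaffold genes 6 rose and none fell (median 0.51), led by GRIK1, a kainate receptor subunit (chromosome 21, 30909256 to 31312282, minus strand), from 0.466 to 2.05 FPKM (2.08). The records that hold GLRA2, a glycine receptor subunit (1.96), and GRIA2, an AMPA receptor subunit (1.70), carry more than 1 symbol and are uncertain for that reason. GABRG3, a GABA receptor subunit, was at 1.79 and 1.00 (-0.62). Of 15 sodium and calcium channel genes 2 rose and none fell (median 0.53), SCN1A from 0.671 to 1.83 (under 2-fold, at 0.89, with a pseudocount of 1) and SCN3A, a sodium channel of the embryonic brain, from 5.74 to 11.9, while SCN2A was at 1.46 and 2.51 (0.90) and SCN9A at 3.80 and 2.51. Of 17 genes for transmitter synthesis and transport only 2 passed the filter. SLC17A6, the vesicular glutamate transporter VGLUT2 (chromosome 11, 22359667 to 22401044, plus strand), rose from 8.66 to 19.9 (1.34). The GABA-synthesising enzymes GAD1 and GAD2 were at 0.211 and 0.0764 at day 5 and at 0.143 and 0.0376 at day 11.

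The cytoskeleton list had high levels already at day 5. Of 27 expressed records 4 rose and none fell, with a median of 0.57. MAPT, which encodes tau, had the largest change, from 5.76 to 14.4 FPKM (1.46). DCX, a microtubule protein of migrating neurons (chromosome X, 110537008 to 110655406, minus strand), went from 39.0 to 90.0 (1.35) and STMN2, a growth cone stathmin, from 238 to 517 (1.27). MAP2 was at 174 and 190 (0.28), and NEFL, the light neurofilament, at 140 and 89.2 (-0.50). The record with TUBA1A is listed at 0 at day 18 after 3301 at day 11, although tubulin is made by every cell. Its day 18 value is therefore doubtful, but it was not left out of the counts from day 4 to day 18. Among RNA-binding proteins, 4 of 15 rose and none fell (median 0.75): CELF4 from 3.21 to 10.1 (1.78), CELF5 from 4.51 to 12.1 (1.56), SRRM4, the splicing factor of neuronal microexons, from 3.32 to 8.99 (1.56), and CELF3 (1.01). PTBP1, the splicing repressor of non-neuronal cells, was at 77.8 and 62.2 (-0.17), its neural paralogue PTBP2 at 28.4 and 42.3 (0.73), and MBNL2 at 3.85 and 2.47 (-0.47).

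REST changed little, with 6.06 FPKM at day 5 and 5.37 at day 11 (-0.02). Among 35 expressed chromatin genes only ACTL6B, the neuronal actin-like subunit of the BAF remodelling complex, rose (7.85 to 18.1, 1.35) and only HMGA2, a chromatin protein of early progenitors, fell (74.5 to 27.6, -1.28). ACTL6A, the progenitor counterpart of ACTL6B, was at 38.2 and 33.9 (-0.02), and DPF3 at 2.56 and 4.23 (0.85).

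Rises were most frequent among the longest genes. When the coding records were cut into 10 groups of equal size by the span of the gene, 99 of the 1180 with the longest spans (175 kb and more) rose, which is 8.39% against 2.61% of all coding records, and 40 fell. In the other 9 groups between 13 and 39 rose. The median change was 0.11 in the longest group and lay between -0.05 and 0.03 in the others. Of the 99, 23 belong to the neuronal lists described above, and of the 30 rises in the next longest group 7 do. In the remaining groups 2 to 5 rises do. The share of these lists among all 1180 was not counted. The longest group also had the lowest median FPKM, 7.91 against 10.2 to 13.0 in the rest. Rises were rarer at higher levels: of 936 records with a mean FPKM of 1 to 2, 94 rose (10.0%), and of 1085 above 50, 6 (0.55%). Falls had no such order, with 7.16% at 1 to 2 FPKM, 1.54% at 10 to 20 and 4.33% above 50. What part the level had in the count of long genes was not tested.

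**Figure D2:**
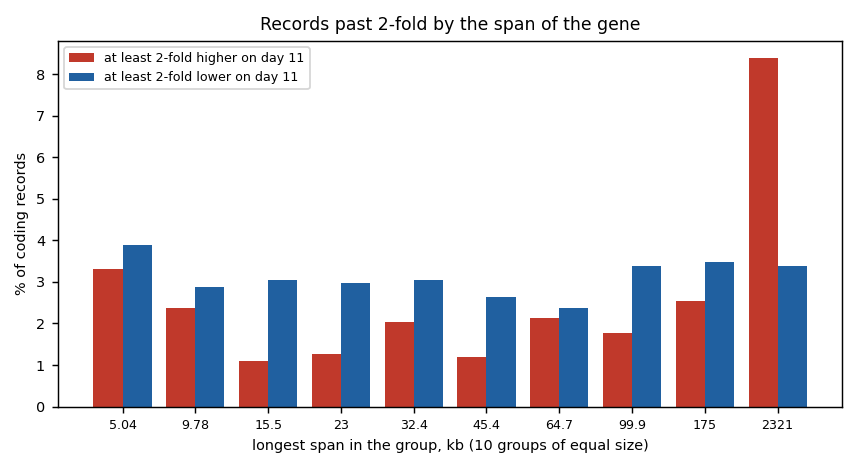
Share of coding records that were at least 2-fold higher (red) or lower (blue) at day 11 than at day 5, in 10 groups of equal size by genomic span. The axis gives the longest span of each group in kb. The bar for the longest genes reaches 8.39% for rises, and the falls lie between 2.37% and 3.9% in every group.

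Some position factors and genes of retinoid metabolism rose. In a list of transcription factors of dorsal neural tube and hindbrain, drawn up after the values had been seen, 8 of 22 expressed genes rose and none fell (median 0.88). GSX1, a homeobox factor of interneuron progenitors (chromosome 13, 28366780 to 28368089, plus strand), went from 1.07 to 9.01 FPKM (3.11), BHLHE22 from 0.536 to 3.01 (2.44) and TFAP2A from 0.592 to 3.21 (2.41). TLX3 and LMX1B, factors of dorsal spinal and hindbrain neurons, went from 6.79 to 17.7 and from 7.4 to 17.2. EN1, a midbrain-hindbrain factor, was at 0.599 and 0.242 (-0.88). CYP26B1, which breaks down retinoic acid (chromosome 2, 72356367 to 72374963, minus strand), had the second largest rise of all coding records, from 0.472 to 8.47 and on to 30.6 at day 18 (4.06). In the same pathway DHRS3 rose from 1.33 to 4.55 and CYP26A1 from 4.46 to 9.58, and CRABP1, a carrier of retinoic acid, from 384 to 711. This pathway was also listed after its values were known, and 4 of its 11 expressed genes rose, none fell, with a median of 0.04. STRA6, the retinol transporter, was at 5.15 and 2.82 (-0.69).

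Other leading rises were NPPC, the C-type natriuretic peptide, from 3.88 to 30.7 FPKM (3.11), CBLN2, a synaptic organiser of the cerebellin family, from 1.28 to 10.3 (3.07), ISLR2 from 0.453 to 4.06 (3.06) and SPARCL1, a matrix protein of astrocytes and neurons, from 2.14 to 13.4 (2.74). OPRK1, the kappa opioid receptor, went from 0.483 to 3.04 (2.58). CXCR7, a chemokine receptor, went from 10.3 to 50.8 (2.45). HLA-H, a pseudogene in GENCODE though counted as coding, was also among the 12 largest. It swung between 0.0118 and 5.79 over the 7 days, and its reads may be shared with near-identical HLA genes. Genes of growth factor signalling went both ways. NTRK2, the receptor of the BDNF in the medium, went from 20.6 to 58.8 (1.66), FGFR2 from 13.5 to 35.0 (1.52), and NRG3, NRG1 and FGF14 rose too. IGFBP3 (-2.81), DUSP6 (-1.44), ETV4 (-1.27) and IGFBP5 (-1.22) fell, DUSP6 and ETV4 being genes that FGF signalling is known to induce. That left 5 rises and 4 falls among 32 expressed genes, with a median of -0.12.

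A large group of falls lay in genes of amino acid supply and stress. ATF4 is a transcription factor made when cells lack amino acids or misfold proteins. It is known to induce amino acid transporters, the serine and one-carbon pathway, aminoacyl-tRNA synthetases and the factor CHOP (gene symbol DDIT3). The list of its targets was assembled after these values had been seen and is a description only. Of 47 expressed members 35 fell and none rose, all 47 had a lower FPKM at day 11, and the median change was -1.46. Their summed FPKM was 2682 at day 5 and 1003 at day 11. ASNS, asparagine synthetase (chromosome 7, 97481443 to 97501854, minus strand), went from 199 to 44 FPKM, a change of -2.02. CHAC1, which degrades glutathione (chromosome 15, 41245636 to 41248717, plus strand), went from 18.3 to 2.92 (-2.45). INHBE, an activin subunit, went from 2.51 to 0.128 (-3.37) and ADM2, a peptide hormone, from 4.93 to 0.385 (-3.22). LAMP3 went from 1.22 to 0.0474 (-3.01, but -0.95 with a pseudocount of 1). TRIB3, a pseudokinase, went from 30.8 to 4.28 and DDIT3 from 39.2 to 7.80. Among transporters SLC7A5 went from 74.8 to 12.2, SLC7A11 from 23.6 to 6.24 and SLC3A2 from 160 to 63.8. In serine and folate metabolism PHGDH went from 190 to 63.2, PSAT1 from 123 to 47.3 and MTHFD2 from 58.1 to 12.6. The synthetase genes WARS, GARS, YARS, CARS, IARS and MARS fell, whereas AARS (-0.78), SARS (-0.83), NARS (-0.87) and EPRS (-0.54) stayed under 2-fold. ATF4 itself was at 293 and 141 (-0.90), VLDLR at 16.3 and 14.4 (-0.02) and PPP1R15A at 37.5 and 29.6 (-0.19).

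Many of these genes had gone the opposite way after the change of medium at day 0. From day 0 to day 1, earlier harvests of the same course, 29 of the 47 rose and none fell, with a median of 1.15. Of these 29, 25 were among the 35 that fell later. Over all coding records 4.51% rose and 2.21% fell. ASNS had been at 113 FPKM at day 0 and 336 at day 1, and TRIB3 at 20.0 and 71.0. At day 11 both were below their day 0 values. By day 18 TRIB3 was at 10.6 and ASNS at 59.3. Over the list, the median against day 5 was -0.55 at day 0, 0.64 on the first day and 0.70 on the second, had declined to 0.35 by day 4, reached -1.46 at day 11 and lay at -0.84 on day 18.

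**Figure D3:**
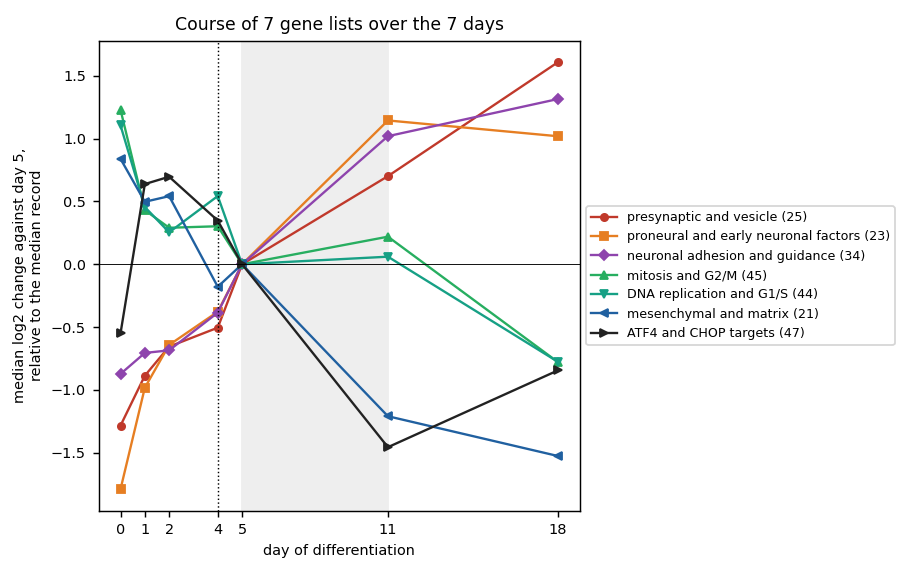
Median log2 change of 7 gene lists against day 5, relative to the median record, on each of the 7 days; the number of members is in the legend, the grey band marks days 5 to 11 and the dotted line the replating at day 4. The ATF4 and CHOP targets stand at 0.64 on day 1 and at -1.46 on day 11, the neuronal lists climb up to day 11, and the cell cycle lists stand above 1 at day 0, at 0.06 and 0.22 on day 11 and at -0.78 on day 18.

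Promoters were searched for the site that ATF4 binds with C/EBP partners, written TGATGNAA, on both strands of the RefSeq promoter sequences (GRCh38.p14, 250 bases before to 50 after the start). The letters were found for 15 of the 38 list members with a promoter in the table (39.5%), for 2.69% of expressed coding genes and for 4.46% of all genes in the table. The list was made of known ATF4 targets after the values had been seen. A high share in it follows from how it was made and tests nothing about the falls. The letters were present in 8.87% of the genes that fell and in 4.76% of those that rose, and in 5.49% of the genes that fell once the list was left out. All shares count only genes, by GENCODE name, with a promoter in the table. These were 282 of 367 that fell, 231 of 307 that rose and 9444 of 11729 expressed. Windows of 60 bases are printed for 4 genes that fell and whose match lies at least 30 bases before the start, with the match in capitals, in the direction of the gene:
CHAC1, chr15:40953236-40953295, plus strand: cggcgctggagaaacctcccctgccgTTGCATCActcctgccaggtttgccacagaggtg
ASNS, chr7:97872443-97872502, minus strand: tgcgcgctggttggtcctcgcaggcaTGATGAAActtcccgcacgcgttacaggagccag
HERPUD1, chr16:56931940-56931999, plus strand: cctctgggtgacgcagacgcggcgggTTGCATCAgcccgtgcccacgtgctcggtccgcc
ATF3, chr1:212565190-212565249, plus strand: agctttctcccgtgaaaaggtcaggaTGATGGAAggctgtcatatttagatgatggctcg
The coordinates are those of GRCh38.p14 and not of hg19. HERPUD1, a protein of endoplasmic reticulum quality control, went from 30.3 to 10.1 FPKM (-1.43) and ATF3, a stress-induced repressor, from 21.1 to 9.0 (-1.07). Matches were also present for genes under 2-fold, such as AARS, CEBPG and SLC1A4, and a match says nothing of binding. Of the other 6 motifs searched, the AP-1 letters TGACTCA were found for 11.7% of the genes that fell, 4.33% of those that rose, 4.38% of the expressed coding genes and 6.05% of all. The TEAD letters GGAATG were found for 22.7%, 16%, 14.9% and 16.7%. The E-box CAGATG, read by proneural factors, was found for 22.1% of the genes that rose, 16.7% of those that fell, 13.3% of the expressed and 17.5% of all. In the same order CAGCTG was found for 26.8%, 26.2%, 22.3% and 21.1%, CATATG for 3.9%, 2.48%, 2.0% and 3.72%, and CCAAT for 45%, 38.7%, 43.8% and 39.7%.

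Matrix and contractile genes formed another group of falls. Of 26 such genes 21 were expressed, 15 fell and none rose, and the median was -1.21. Their summed FPKM went from 888 to 305. TAGLN, an actin-binding protein of contractile cells (chromosome 11, 117070040 to 117075507, plus strand), went from 147 to 21.9 FPKM (-2.59). COL13A1, a transmembrane collagen, went from 0.912 to 0.0280 (-2.83), which is -0.76 with a pseudocount of 1. MYL9 and TPM2, of the contractile apparatus, went from 58.5 to 10.8 and from 64.0 to 13.9. CTGF and CYR61, targets of YAP and TEAD, went from 116 to 35.6 and from 54.6 to 18.2. COL3A1 (-0.57), FN1 (-0.51) and LUM (-0.06) stayed under 2-fold, and THY1 was at 1.47 and 1.89 (0.49). SPP1, osteopontin (chromosome 4, 88896802 to 88904562, plus strand), fell from 88.4 to 5.67 (-3.79). TFPI2, a protease inhibitor of the matrix, fell from 25.3 to 2.21 (-3.30), and EPAS1, a hypoxia-inducible factor, from 9.60 to 0.712 (-3.43). In the neural crest list SNAI2 fell from 3.21 to 0.812 while TFAP2A and TFAP2B rose (2 of 5 up, 1 down). The call of TFAP2B was lost as deposited (0.86) and with a pseudocount of 1 (0.98).

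The remaining leading falls were DHRS2 (3.9 to 0.188, from 0.435 on day 4, so that its fall rests on day 5), CSTA (1.60 to 0.0568), STOML3 (6.35 to 0.545) and OLFML3 (5.13 to 0.438). ZNHIT2 is listed at 6.07 on day 5, then 0.0101, then 3.51 on day 18. Its nominal fall is the largest of all and rests on the day 11 value alone, since the other 6 days lie between 3.51 and 6.07. Signalling genes that fell included DKK1, a Wnt inhibitor (3.42 to 0.503), TGFB1 (6.09 to 1.52), TGFBI (1.06 to 0.239) and FST, an activin inhibitor (13.7 to 4.53). The change of TGFBI was only -0.60 with a pseudocount of 1. WNT7A and WNT7B rose, from 1.76 to 3.75 and from 8.86 to 17.8, and so did LTBP1. In all, 3 of 28 expressed Wnt, BMP and TGF-beta genes rose and 5 fell, with a median of 0.14.

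Among stress and supply lists, 3 of 13 immediate early genes fell (FOSL1, from 2.54 to 0.305, FOSL2 and ATF3), with a median of -0.40, while DUSP1 was at 7.47 and 10.7. Of 24 glycolysis and hypoxia genes 4 fell and none rose (median -0.27). ADM, adrenomedullin, went from 8.64 to 1.41 and VEGFA from 25.5 to 6.00, and they were back at 6.75 and 38.7 on day 18. PFKP and SLC2A3 also fell, and PFKM was at 46.3 and 52.8 (0.34). Of 17 p53 targets only SESN2, which is also an ATF4 target, fell (median -0.51). CDKN1A, the p21 inhibitor of the cell cycle, was at 153 and 73.3 (-0.91), PHLDA3 at 29.0 and 14.8 (-0.81) and BTG2 at 9.20 and 11.6 (0.48). Of 24 cholesterol synthesis genes only SC5D was past 2-fold lower (-1.01). Its change was -0.999 with a pseudocount of 1 and -0.989 with scaling by the 75th percentile. Cholesterol synthesis was level, with a median of 0.04. SREBF2, a regulator of this pathway, was at 0.21. In the imprinted list PHLDA2 fell (2.63 to 0.326), CDKN1C (0.89) and NNAT (0.86) stayed under 2-fold, and the median was -0.16.

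Many markers of other cell types were below the level filter. Of those expressed, some rose, some fell and others stayed under 2-fold. GFAP was at 0.0343 and 0.0199 FPKM, OLIG2 at 0.0404 and 0.104, SOX10 at 0.0325 and 0.165, and POU5F1 and NANOG were under 0.12 on both days. Of 12 astrocyte genes 7 were expressed, 2 rose (SPARCL1 and SLC1A2, a glutamate transporter, from 5.07 to 13.4) and 2 fell (GJA1, from 48.2 to 16.5, and CD44). Their summed FPKM went from 126 to 100.7. Of 12 oligodendrocyte genes 3 were expressed, of which 1 rose and none fell (median 0.08). PDGFRA, in a record with another symbol, was at 24.0 and 19.7 and CNP at 19.2 and 18.3. KDR and CD34, the 2 expressed endothelial genes, fell from 3.84 to 0.791 and from 0.887 to 0.131. The change of CD34 was only -0.61 with a pseudocount of 1. CDH5, a defining marker of endothelium, was at 0.0651 and 0.10. Of 6 expressed pluripotency genes none rose or fell (median -0.34), LIN28A being at 8.74 and 4.58 (-0.76) LEFTY1, in a record with another symbol, at 29.2 and 18.8 (-0.48), and SALL4 at 9.19 and 13.0 (0.64). The 2 epithelial records, those with KRT19 (15.8 and 22) and AQP1 (2.67 and 2.62), and MEF2C, the single expressed muscle gene (1.56 and 1.62), did not pass 2-fold. The part that any such cells had in the falls of matrix genes was not tested.

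Days 4 and 18 were then examined, since their samples enter neither the day 5 nor the day 11 values. They are not independent cultures: per the study's methods, the cells for days 5, 11 and 18 were all replated at day 4. Of the 308 coding records that rose, 304 were higher at day 18 than at day 4 relative to the median and 275 (89.3%) by at least 2-fold. Of the 367 that fell, 352 were lower and 262 (71.4%) by at least 2-fold. The backgrounds were 8.13% higher and 5.97% lower. The median change of the rising records was 1.34 between days 5 and 11 and 2.41 between days 4 and 18, and that of the falling records -1.43 and -1.41. Of the 54 lincRNA records that rose, 50 were higher at day 18 and 40 by at least 2-fold, and of the 73 that fell 67 were lower and 44 by at least 2-fold, against backgrounds of 7.25% and 3.74%. The longer interval contains the shorter one in time, and the days belong to 1 course. The level filter is a mean over all 7 days, so days 4 and 18 also helped to select the records. With no filter, 494 of 562 coding rises and 293 of 473 coding falls passed 2-fold the same way at days 4 and 18. Among lincRNA records 224 of 416 rises and 85 of 230 falls did so.

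**Figure D4:**
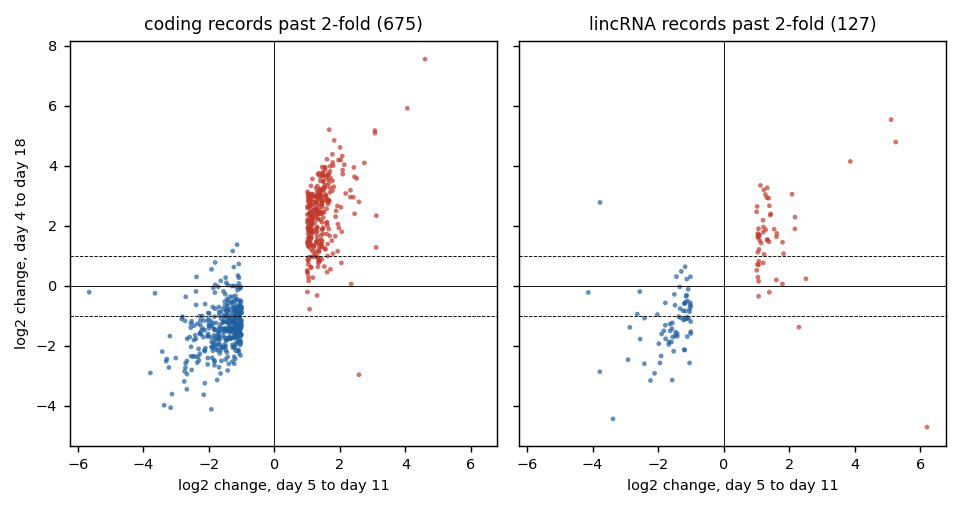
Log2 change from day 4 to day 18 against that from day 5 to day 11, relative to the median record, for the 675 coding and 127 lincRNA records past 2-fold between days 5 and 11. Each point is 1 record, red for rises and blue for falls, and the dashed lines mark 2-fold. Points lie mostly in the quadrants of equal direction, with 304 of 308 rises and 352 of 367 falls among coding records.

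Several long noncoding RNAs known in neural tissue changed. The record linc-HSCB-11, named MIAT by GENCODE (chromosome 22, 27041887 to 27196380, plus strand), went from 106 to 211 FPKM, a change of 1.14. PANTR1, next to POU3F3, went from 43.8 to 81.1 (1.04). Both were under 2-fold as deposited, with 0.99 and 0.89. CRNDE was at 44.3 and 66.2 (0.73), MALAT1 at 113 and 119 (0.23), NEAT1 at 10.3 and 6.28 (-0.55) and TUNAR at 16.2 and 10.8 (-0.43). EPHA5-AS1 went from 3.19 to 7.91 and SLC17A6-DT from 1.49 to 3.61, both overlapping a neuronal gene that rose. Among intergenic falls the record named TENM3-AS1 (linc-AGA-9, chromosome 4, 182885008 to 183009601, minus strand) went from 4.02 to 0.591 and LINC00052 from 7.54 to 1.73. The record linc-RNF24 (chromosome 20, 4004363 to 4018531, minus strand) went from 281 to 97.3, but it spans linc-SMOX-2, a copy of FTL on the other strand with nearly equal values, and reads of the pair cannot be told apart. The lincRNAs of this paragraph were chosen after their values had been seen.

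The lincRNA records with the largest changes were mostly low or short. The nominal rises of linc-ANP32E-AS, linc-C7orf42-AS, linc-OR6C76 and linc-SEH1L-AS start from records listed at 0 at day 5, and linc-MAP7D1-AS is listed at 0 at day 11, so no fold is given for these 5. Their levels on the other day lay between 1.21 and 6.54 FPKM. The exons of these records, linc-OR6C76 apart, sum to under 500 bases. Of the other named rises, linc-BIVM-ERCC5-AS went from 0.395 to 2.44, linc-SMARCA4-AS from 0.597 to 2.98, linc-CXCR7-AS from 6.34 to 26.1 and linc-LRRC37A2, which overlaps the pseudogene NSFP1, from 0.207 to 1.15. The change of linc-LRRC37A2 was 0.96 with a pseudocount of 1. Of the named falls, linc-CD28 went from 1.45 to 0.0015 and was at 1.94 on day 18, linc-CLLU1-4 went from 2.02 to 0.0384, linc-SENP6 from 3.45 to 0.207, linc-USP17-2 from 2.64 to 0.227, linc-KLHL31-2 from 1.55 to 0.104, linc-TSPAN11-1 from 0.789 to 0.0286 and linc-ASNS-AS from 2.16 to 0.245. With a pseudocount of 1 the change of linc-TSPAN11-1 was only -0.67. Of the 216 expressed records under 500 exon bases 9 rose and 9 fell, and of the 2434 longer ones 45 rose and 64 fell. Without the 800 records flagged as pseudogenes and the 1327 with exons opposite a coding exon, 735 remained, of which 17 rose and 26 fell. The flag is also set for records that GENCODE types as long noncoding RNAs, among them MIAT and PANTR1. GENCODE places 568 of the 2650 expressed records on a pseudogene.

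Some lincRNA records moved with the coding record beside them. For each of the 2650 expressed lincRNA records the nearest expressed coding record was taken. Of the 54 that rose, 15 had a neighbour that rose, where 2.72% of all 2650 had one. Of the 73 that fell, 25 had a neighbour that fell, where 2.91% had one. Most of these pairs overlap: 11 of the 15 and 19 of the 25 were records whose exons lie opposite a coding exon. The libraries are not stated to keep strand, so reads of the overlapping stretch cannot be assigned to either partner. linc-CXCR7-AS changed by 2.18 beside CXCR7 with 2.45, and 1905 of its 2074 exon bases lie opposite CXCR7. linc-DLL1-AS changed by 1.61 beside DLL1, and the linc-ASNS-AS record of 427 exon bases by -2.56 beside ASNS. Within 10 kb but without overlap, 0 of 7 rising and 0 of 5 falling lincRNA records had a neighbour that moved with them. Of all 321 records there, 1.56% had a neighbour that rose and 1.25% one that fell, so counts this small show little. Beyond 10 kb 3 of 18 and 6 of 41 had one, where 4.53% and 3.69% of all 949 had a neighbour that rose or fell. Among the 3 is linc-TNFRSF14 (chromosome 1, 2477846 to 2482904, plus strand), which lies 16162 bases from HES5 and went from 1.45 to 4.85 FPKM while HES5 changed by 1.79. Over all pairs the changes correlated across records with a Pearson r of 0.50 in the 1327 records opposite a coding exon, 0.32 in the 321 within 10 kb and 0.14 in the 949 beyond. Records are not independent replicates, and all pairs share the same pair of columns.

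**Figure D5:**
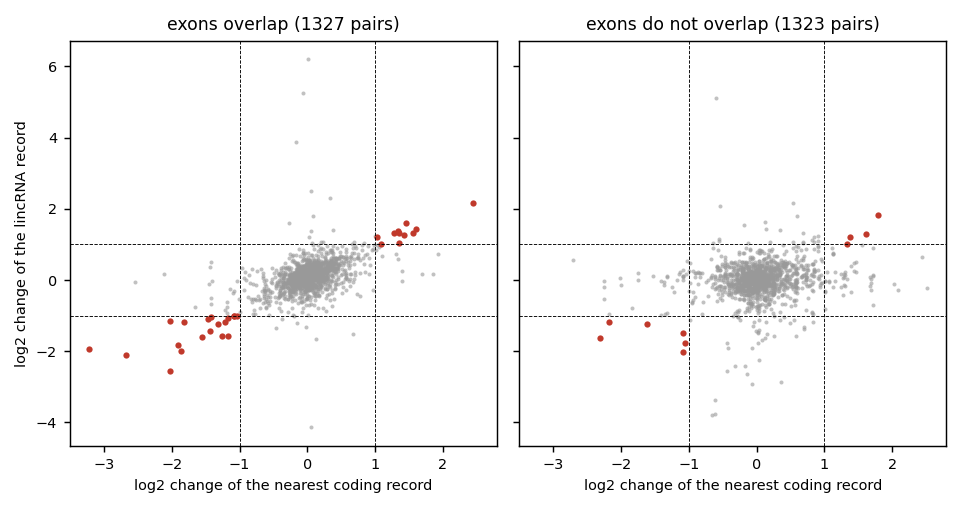
Log2 change from day 5 to day 11 of each expressed lincRNA record against that of its nearest expressed coding record, relative to the median record, for lincRNAs with exons opposite a coding exon (left, 1327 pairs) and the rest (right, 1323 pairs). Pairs in which both passed 2-fold the same way are red (30 on the left, 10 on the right), other pairs are grey and dashed lines mark 2-fold.

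Pseudogene copies moved with their source genes in a few cases. Among 368 expressed lincRNA records that GENCODE places on a pseudogene whose parent is an expressed coding record, 6 fell (1.63%, against 2.75% of all lincRNA records) and 2 rose. The parents of 3 of the 6 also fell and neither parent of the 2 rose. The 3 were linc-EIF2S2 on XPOTP1 (13.5 to 3.46 FPKM, XPOT -1.69), linc-RNF170-4 on ASNSP1 (19.2 to 5.32, ASNS -2.02) and linc-SMOX-2 on FTLP3 (281 to 102, FTL -1.43). Another, linc-HTR3B on ATF4P4, went from 8.98 to 3.9. As reads of a near-identical copy can be assigned to the parent or the copy, these values are uncertain for the copies.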

How the data were processed

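Polyadenylated RNA was sequenced as paired ends. Per the study's methods, reads were aligned to hg19 with Tophat2 (also named in the submitters' processing notes), assembled with Cufflinks and quantified with Cuffdiff2. Versions and use of strand are not given in the sources used here. The deposited FPKM matrix holds 1 estimate per gene record and day, made by the authors over that day's cultures, and 0 columns of single samples. A deposited comparison table also holds fold changes, test statistics, p-values and q-values of the authors, none of which was used. Its positions and its pseudogene flag, a deposited score, were used.

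Changes were differences in log2(FPKM + 0.1), less the median over records averaging 1 FPKM or more, called at 2-fold. No test or interval was computed, and counting depth is unknown. Named were the 12 coding and 8 lincRNA records with the largest change each way, 3 members of each list with the largest change and 1 moving against its median, and 17 marker genes with the miR-9 hosts. Further members were named after their values were seen. Some genes that this rule names are not reported here. The gene lists and the comparison were chosen with earlier results of these data known. Scripts (Python 3.11.15, pandas 2.3.3, numpy 2.4.6, scipy 1.17.1) were tested on simulated data. Alternatives were other pseudocounts, filters, scalings and folds.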

Additional observations from a re-analysis of the deposited data

How the results depend on the processing

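No paired analysis was possible because the files hold 1 value per day, and for the same reason leaving out a culture and a replicate block were not run. With a pseudocount of 1, 196 coding records rose and 202 fell, 26 lincRNA records rose and 31 fell, and of these 167, 137, 17 and 19 passed 2-fold the same way from day 4 to day 18. With no filter on level, 562 coding records rose and 473 fell, 416 lincRNA records rose and 230 fell, so that rises outnumbered falls in both classes, and 494, 224 and 85 (coding rises, lincRNA rises and falls) passed at days 4 and 18. Under a minimum mean FPKM of 5, the counts were 127 and 205 coding, 8 and 18 lincRNA, and 105, 157, 6 and 14 at days 4 and 18. On values as deposited 34 lincRNA records rose, and 167, 435, 22 and 80 records passed at days 4 and 18. A fold of 1.5 gave 829, 848, 215 and 180 records, with 728, 624, 153 and 102 at days 4 and 18. A fold of 3 gave 73, 138, 15 and 27, with 62, 80, 8 and 15. Without records flagged as pseudogenes or opposite a coding exon, 17 lincRNA records rose and 26 fell, and without overlapping pairs 4 and 6 neighbours moved with their lincRNA. A pseudocount of 0.01, equal sums and scaling by the 75th percentile left all 8 counts within 1.5 times. So did, for the 4 counts of rises and falls, leaving out records at 0 or under 500 exon bases, chosen after seeing the data (306, 367, 44 and 64).

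The median of the endothelium and blood list was 0.14 with no filter against -1.97 (-0.95 with a pseudocount of 1), as members under 1 FPKM then entered. The proneural median was 0.97 with a pseudocount of 1, 0.89 with no filter and 0.99 as deposited, and the adhesion median was 0.91, 0.87 under the minimum of 5, and 0.87 as deposited. Among the genes named by the fixed rule none reversed, 16 changes under an alternative dropped below 2-fold and 3 newly passed it (EN1 at -1.12 with a pseudocount of 0.01 and -1.03 as deposited, CDKN1A at -1.06 as deposited). Records named after their values were seen were not recomputed under every alternative.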
